A study of Mus musculus with 8 samples.

Results

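Macrophages are the resident phagocytes of fat, and 38 genes that mark them or their states of activation were followed here in mouse brown fat, the tissue that burns lipid for heat. The genes were chosen by name, and each of the 38 was found among the 54532 genes of the table. They fell into 7 groups by role: 6 genes of general macrophage identity, 7 resident-type genes, 4 receptors for the clearance of dead cells and debris, 6 lipid-associated genes, 5 Fc receptors and signalling adaptors, 8 inflammatory and pattern recognition genes, and the pair Arg1 and Il10. RNA came from whole brown fat of 4 wild-type mice (WT) and of 4 mice of the genotype labelled CLCF1-ATG (TG), 1 library per mouse, with mice numbered 1, 2, 3 and 5 in each group. CLCF1 belongs to the interleukin-6 cytokines and acts through receptors that contain Lifr and Il6st. The sources used here give no age, sex or diet and do not say which promoter drives the transgene. Values are FPKM, fragments scaled by gene length and library, as the authors deposited them.

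Tissue macrophages depend on the receptor Csf1r and its ligands Csf1 and Il34. In fat, cells rich in Mrc1, Cd163, Clec10a, Lyve1, Folr2, Timd4 and Maf are usually counted as resident or alternatively activated macrophages. Cells that gather around dying adipocytes take up lipid and express Trem2, Gpnmb, Cd9, Itgax, Lgals3 and Spp1. Recognition of bacterial products through Cd14 and toll-like receptors leads to release of the cytokines TNF and interleukin-1 beta, which macrophages share with neutrophils and other cells.

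The libraries held 13734231 to 15751302 recovered reads in WT and 18494022 to 20183840 in TG. The mitochondrial chromosome took 24.1% to 37.5% of them in WT and 6.09% to 7.34% in TG, so the genotypes also differed in how reads were spread over genes. Clcf1 itself ranged from 0.434 to 3.40 FPKM in WT and from 78.7 to 89.9 FPKM in TG, and each library followed its label. The brown fat gene Ucp1 was present in every library, at 1420 ± 371 FPKM in WT against 82.8 ± 45.3 FPKM in TG (SD, n = 4 each). WT 2 and TG 5 stood apart by muscle transcripts: Acta1, the actin of skeletal muscle, reached 1097 FPKM in WT 2, 588 FPKM in TG 5 and 8.99 to 77.5 FPKM in the other 6 libraries. The 10 muscle markers summed to 12.5 to 3376 in WT and 184 to 1907 FPKM in TG, and 0 of the 9 that were tested passed. Counts that lead below are therefore also given without WT 2 and TG 5.

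Of the 38 genes, 10 rose in TG, 8 fell, 14 did not pass the test and 6 were too low to be tested. The test was limma on log2(FPKM + 1), run where 4 or more libraries reached 0.5 FPKM and adjusted by Benjamini-Hochberg over the 12508 genes tested, with a threshold of 0.05. It called 44.1% of all tested genes, 22.3% higher and 21.8% lower, against 56.2% of the 32 tested macrophage genes, 31.2% higher and 25% lower. The median log2 change over all 38 was -0.0019, and that of all tested genes was 0.01. With no filter on low values the test called 10 of the 38 (26.3%), against 18.8% of the 26296 genes then tested. The genotypes did not overlap in 12 of the 32 (37.5%), against 42.6% of all tested genes. These shares lie near those of the tissue's genes at large and are no result about the 38 as a group; the results below are about which of them went up and which went down. Without WT 2 and TG 5, 3 of the macrophage genes rose and 3 fell. Calls over all genes dropped as well in that smaller set of mice, from 2788 to 1827 higher and from 2725 to 1907 lower.

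**Figure D1:**
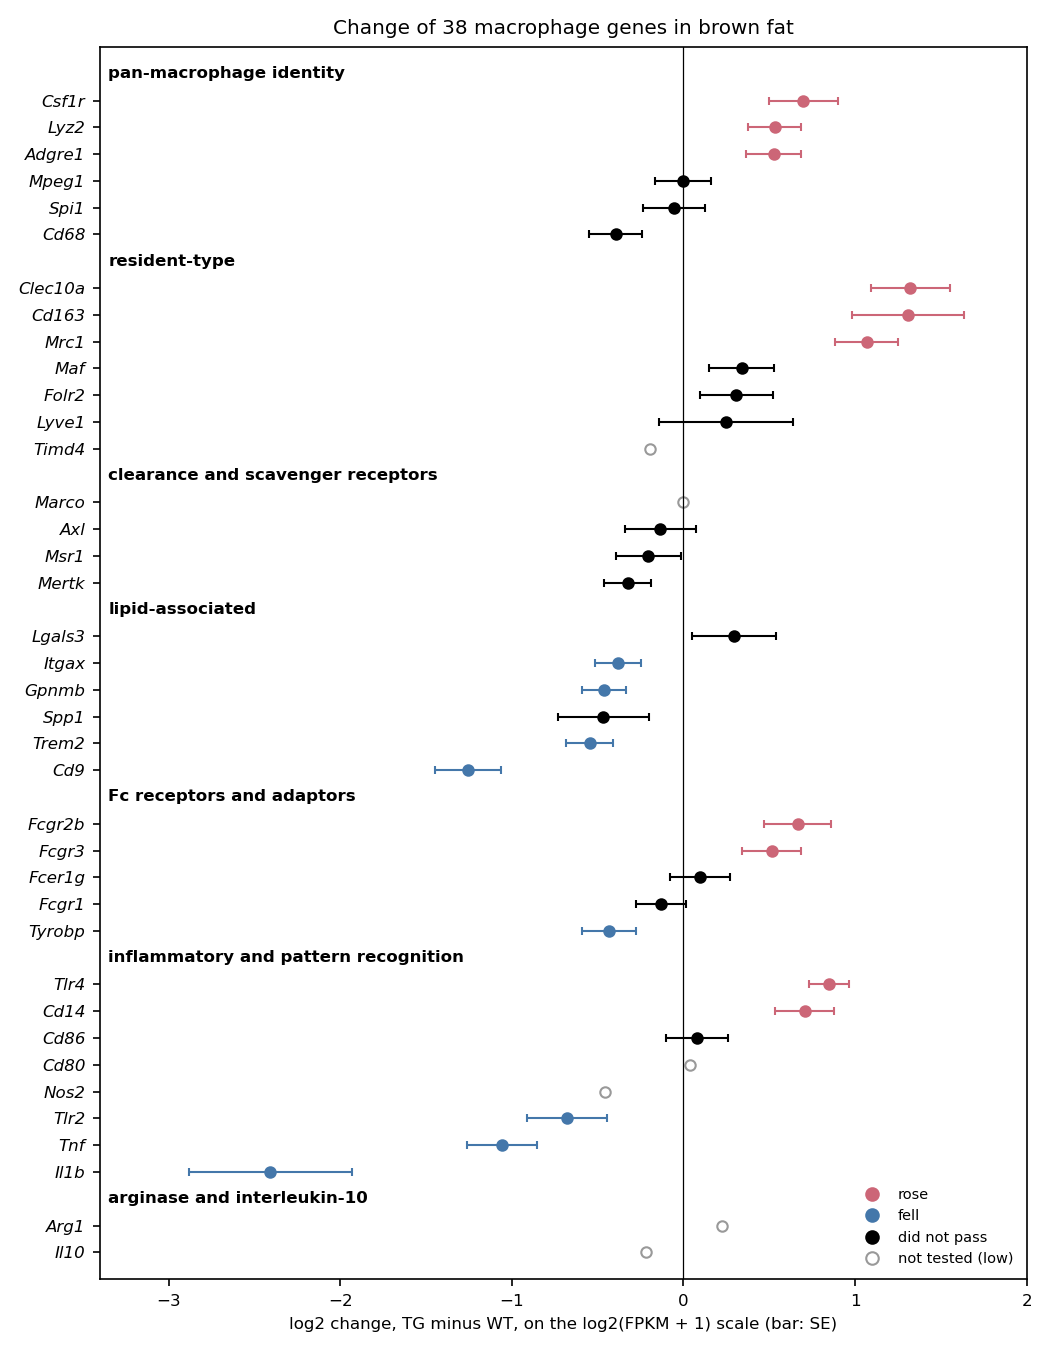
The horizontal axis is the log2 change of each gene in TG relative to WT, in log2(FPKM + 1) units, with bars of 1 standard error. Genes are grouped by role; colours mark those that rose (10), fell (8) or did not pass (14), and open circles without bars mark the 6 genes too low to be tested. Every called resident-type gene lies right of 0 and every called lipid-associated gene left of 0.

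The genes of general identity were mostly level or higher in TG. Adgre1 (F4/80, a surface receptor used as the standard macrophage marker), Csf1r and Lyz2 (lysozyme) rose, Cd68, Mpeg1 and Spi1 did not pass, and the median log2 change of the 6 was 0.26. Csf1r, the receptor on which macrophage survival depends, stood at 5.16, 3.42, 2.56 and 5.10 FPKM in WT 1, 2, 3 and 5 and at 9.31, 6.98, 5.72 and 6.44 FPKM in TG 1, 2, 3 and 5. Each TG library was above each WT library, and the log2 change was 0.70 (SE 0.20, adjusted p = 0.0192 with limma). Lyz2 stood at 148, 109, 172 and 173 FPKM in WT and at 227, 207, 200.0 and 224 FPKM in TG. Again the groups did not overlap, and Lyz2 was by far the most abundant of the 38 per length (log2 change 0.53, adjusted p = 0.0200 with limma).

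Adgre1 stood at 3.93, 2.62, 3.25 and 5.26 FPKM in WT and at 5.83, 5.88, 6.01 and 5.21 FPKM in TG. The TG mice were even and the WT mice were not, and WT 5 reached the level of TG 5 (log2 change 0.53, adjusted p = 0.0237 with limma). Cd68, a glycoprotein of the lysosome membrane, went the other way in its values, with 9.93 to 13.7 in WT and 6.50 to 11.1 FPKM in TG (log2 change -0.39, adjusted p = 0.0654), and was called lower when TG 1 was left out (adjusted p = 0.0223, range 0.0223 to 0.983 over its alternatives). Mpeg1, a pore-forming protein of phagosomes, was at 6.74 ± 1.72 FPKM in WT against 6.59 ± 0.535 FPKM in TG (SD, n = 4 each). Spi1, the gene of the transcription factor PU.1 that specifies the lineage, was at 4.88 ± 1.55 and 4.53 ± 0.337 FPKM. In whole tissue, fewer cells of a type and less RNA per cell cannot be told apart, and the identity genes do not all go one way.

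The 3 identity calls were not firm. A fit with a library left out has fewer mice, so a call can be lost with little change in its size. The log2 change of Adgre1 was 0.52 without TG 1, 0.52 without TG 2 and 0.51 without TG 3, against 0.53 with all libraries. It was 0.40 without WT 2 and 0.48 without WT 3. Adgre1 lost its call without WT 2 (adjusted p = 0.0558), WT 3 (0.0561), TG 1 (0.0545), TG 2 (0.0574) or TG 3 (0.0590), and its adjusted p ran from 0.000323 to 0.0795 over its alternatives. Csf1r lost it without TG 1 (0.0546; range 0.000708 to 0.0755), Lyz2 without TG 5 (0.0540; range 9.37e-05 to 0.103), and all of them without WT 2 and TG 5 together. Csf1r overlaps Hmgxb3 on the other strand (1.84 FPKM in WT and 2.26 in TG), and Lyz2 has the close copy Lyz1, so reads of these neighbours may be mixed in.

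**Figure D2:**
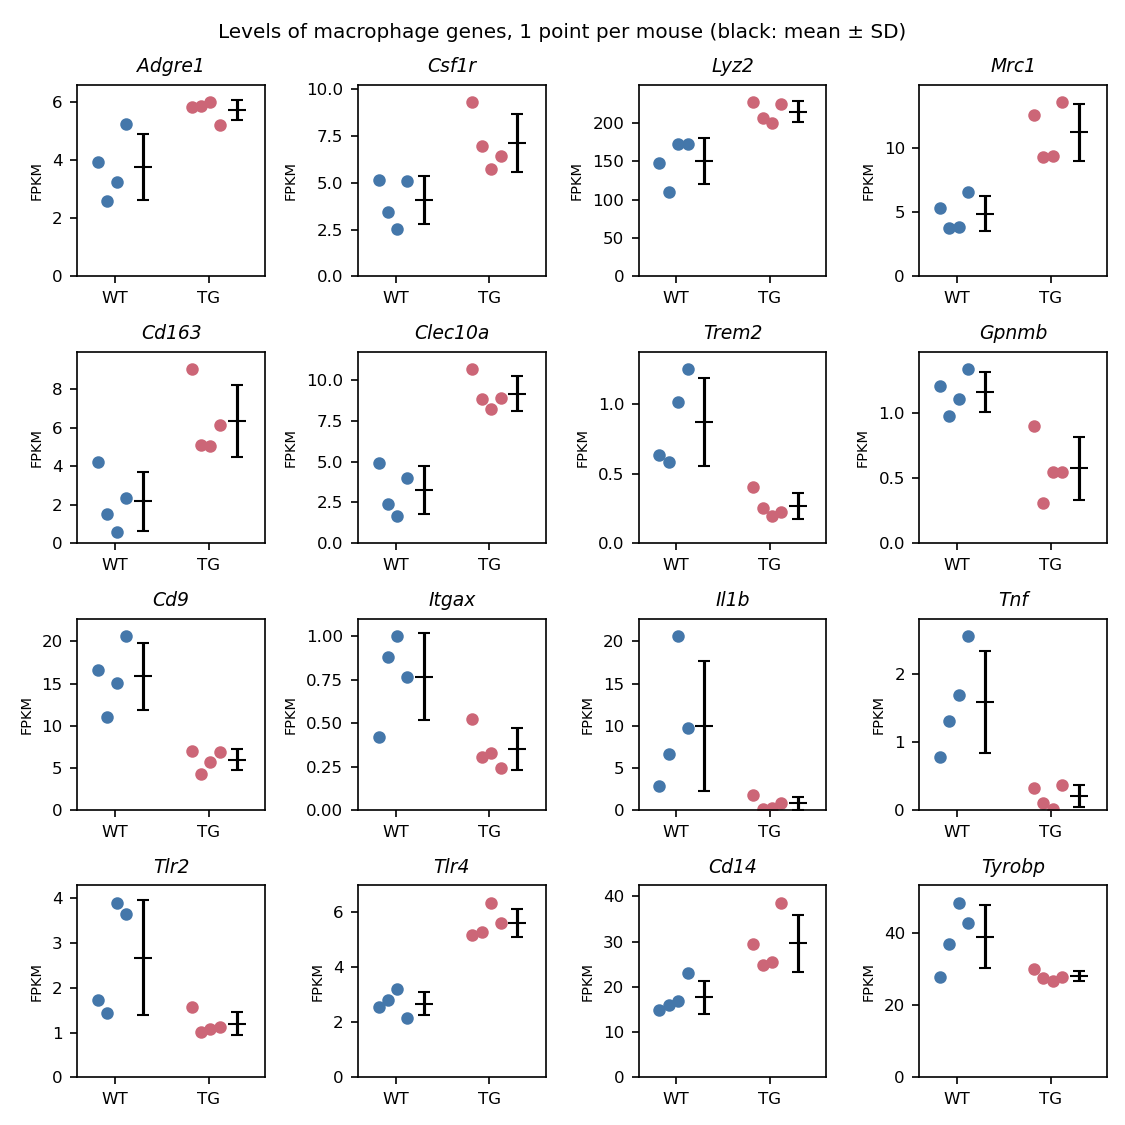
Each panel shows the FPKM of 1 gene on a linear axis from 0, with 1 point per mouse (WT blue, TG red) and the mean ± SD of 4 mice in black. Mrc1, Clec10a, Tlr4 and Cd14 are higher in every TG mouse than in any WT mouse, and Cd9, Trem2, Gpnmb, Tnf and Il1b are lower.

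Among the resident-type genes, Mrc1, Cd163 and Clec10a rose, Lyve1, Folr2 and Maf did not pass, and Timd4 was too low to be tested. The 7 had a median log2 change of 0.34. The 3 that rose are endocytic or sugar-binding receptors, and each was 2.30 to 2.91 times as high in TG by mean FPKM. Mrc1 (the mannose receptor CD206; chromosome 2, 14229392 to 14332057, plus strand) stood at 5.36, 3.77, 3.83 and 6.61 FPKM in WT and at 12.6, 9.37, 9.38 and 13.6 FPKM in TG. The lowest TG mouse was above the highest WT mouse, and the log2 change was 1.07 (SE 0.18, adjusted p = 0.00138 with limma).

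Clec10a, a lectin that binds galactose-type sugars, stood at 4.92, 2.44, 1.66 and 3.98 FPKM in WT and at 10.7, 8.84, 8.21 and 8.91 FPKM in TG (log2 change 1.32, SE 0.23, adjusted p = 0.00142 with limma). Cd163, the scavenger receptor for haemoglobin bound to haptoglobin, stood at 4.21, 1.54, 0.592 and 2.38 FPKM in WT and at 9.06, 5.12, 5.05 and 6.17 FPKM in TG (log2 change 1.31, SE 0.33, adjusted p = 0.00964). Neither gene overlapped between the groups, and both were lowest in WT 3 and highest in TG 1. Mrc1 and Clec10a were called in each of their 23 alternatives, whereas Cd163 lost its call without WT 2 and TG 5 (adjusted p = 0.0511; range 0.000826 to 0.0511).

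None of the other resident-type genes was called in the main test. By mean FPKM, Folr2 was 1.51, Maf 1.30, Lyve1 1.06 and Timd4 0.65 times as high in TG. Lyve1, a hyaluronan receptor of vessel-associated macrophages and of lymphatic vessels, was spread from 0.232 (WT 3) to 3.84 FPKM (WT 1) in WT and was steadier in TG at 2.14 ± 0.508 FPKM (SD, n = 4; adjusted p = 0.635). The lymphatic factor Prox1 was at 0 in all WT libraries and in TG 3 and TG 5, and at most 0.0338 FPKM elsewhere. The 8 lymphatic markers summed to 8.53 to 15.2 in WT and 3.92 to 9.31 FPKM in TG, with 1 of 3 tested called, Flt4, which fell (log2 change -0.84). With WT 1, WT 2, WT 3 or WT 5 left out, 0 lymphatic markers were called and only 1 or 2 were still tested. Folr2, a folate receptor of resident macrophages, was at 0.826 ± 0.480 FPKM in WT against 1.25 ± 0.463 FPKM in TG (adjusted p = 0.263). Maf, a transcription factor of the resident programme, was at 3.67 ± 1.27 and 4.77 ± 0.656 FPKM (SD, n = 4 each; adjusted p = 0.176). Leaving out WT 5 brought Maf past the threshold (adjusted p = 0.0364), as did 3 other scalings, and its range was 0.00562 to 0.397. Timd4, a receptor for exposed phosphatidylserine, lay between 0.376 and 0.884 FPKM in WT and between 0.302 and 0.540 FPKM in TG, with 11 to 28 reads per library.

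A further 19 genes often reported in resident-type cells were set beside them, of which 18 could be tested: 8 rose and 4 fell, against 22.3% of all tested genes called higher and 21.8% lower. The counts were 6 and 4 without WT 2 and TG 5. The 4 with the lowest p were Gas6, Selenop and Igf1, which rose, and Ninj1, which fell. Selenop, a selenium carrier, rose from 119 ± 12.5 to 471 ± 48.3 FPKM, and Igf1, the insulin-like growth factor, from 4.78 ± 0.996 to 23.0 ± 3.34 FPKM (SD, n = 4 each; log2 changes 1.98 and 2.06). Ninj1, an adhesion protein, fell from 70.9 ± 1.87 to 30.9 ± 3.40 FPKM. Adipocytes and fibroblasts also express several of these genes, and 9 of the 10 adipocyte markers rose, their sum going from 5316 to 7544 FPKM in WT to 18810 to 28760 FPKM in TG. Their part in these changes was not tested.

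The lipid-associated genes went down where they were called. Trem2, Gpnmb, Cd9 and Itgax fell, Lgals3 and Spp1 did not pass, none rose, and the median log2 change of the 6 was -0.46. Trem2 (chromosome 17, 48346401 to 48354147, plus strand), a lipid receptor that signals through Tyrobp, stood at 0.635, 0.586, 1.02 and 1.25 FPKM in WT and at 0.407, 0.258, 0.195 and 0.229 FPKM in TG. No TG mouse reached the lowest WT mouse, the mean was 3.21 times as high in WT, and the log2 change was -0.55 (SE 0.14, adjusted p = 0.00984 with limma). Trem2 reached 0.5 FPKM in the 4 WT libraries and in no TG library, so its place among the tested genes came from the group in which it was high. With no filter its adjusted p was 0.0255.

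Cd9, a tetraspanin of lipid-associated macrophages that many other cells carry as well, stood at 16.6, 11.1, 15.1 and 20.6 FPKM in WT and at 7.04, 4.34, 5.67 and 6.92 FPKM in TG. Again the groups did not overlap, with a mean 2.64 times as high in WT (log2 change -1.26, SE 0.19, adjusted p = 0.000713 with limma). Gpnmb, a glycoprotein of lipid-laden lysosomes, stood at 1.21, 0.981, 1.11 and 1.34 FPKM in WT and at 0.902, 0.312, 0.551 and 0.549 FPKM in TG, lower in every TG mouse (log2 change -0.46, adjusted p = 0.0168). Itgax (integrin CD11c) stood at 0.424, 0.882, 1.00 and 0.764 FPKM in WT and at 0.524, 0.305, 0.328 and 0.245 FPKM in TG. Here WT 1 lay below TG 1, and the log2 change of -0.38 passed narrowly (adjusted p = 0.0404).

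Cd9 was called in each of its 23 alternatives and Trem2 in each of the 17 that kept it among the tested genes; leaving out any WT library put Trem2 under the filter. Gpnmb lost its call when the values were divided by all recovered reads (adjusted p = 0.120), with 2 other scalings or models, with no filter (0.0513) and without WT 2 and TG 5 (0.0535), within a range of 0.00827 to 0.120. Itgax lost its call in 9 of 17 alternatives, without TG 2 (0.0928), TG 3 (0.0841) or TG 5 (0.105) among them, and its range was 0.0101 to 0.158. Itgax reached 0.5 FPKM in 3 WT libraries and 1 TG library, so leaving out WT 2, WT 3, WT 5 or TG 1 put it under the filter. Without WT 2 and TG 5, Cd9 was the only 1 of the 4 lipid-associated genes then tested that fell.

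Lgals3 (galectin-3, a lectin of phagocytes) was by far the most abundant of the group per length and did not follow it, with 30.3, 39.1, 72.5 and 53.0 FPKM in WT and 69.2, 49.3, 60.4 and 51.2 FPKM in TG (adjusted p = 0.353). Lgals3 passed as higher when divided by all recovered reads (0.0259), with rescaling without abundant genes (0.0432) and with voom (0.0156; range 0.0156 to 0.738). Spp1 (osteopontin) was at 0.670, 0.541, 2.24 and 1.48 FPKM in WT and 0.815, 0.143, 0.345 and 1.03 FPKM in TG, from 5 to 49 reads per library, and did not pass (adjusted p = 0.182). As to the cells that share these genes, the 10 fibroblast and progenitor markers went both ways: Col1a1 and Col1a2 rose, Pdgfra and Ly6a fell, 6 did not pass, and their median log2 change was 0.39. They summed to 199 to 358 in WT and 195 to 248 FPKM in TG. The fall of Pdgfra (log2 change -0.53, adjusted p = 0.0283 with limma) was lost without WT 1 (0.0648), TG 2 (0.0792), TG 3 (0.0797) or TG 5, and in 9 of 22 alternatives in all (range 0.0101 to 0.260). The blood endothelial markers fell, 10 of 10, and their sum went from 172 to 375.5 FPKM in WT to 34.2 to 56.7 FPKM in TG. The dendritic cell factor Flt3 was at or under 0.134 FPKM in all 8 libraries. The 10 dendritic cell markers summed to 15.9 to 23.6 in WT and 13.1 to 24.4 FPKM in TG, with Cd209a called higher and Fscn1 and Zbtb46 lower among the 5 tested. Fscn1 was called in each of its 23 alternatives, whereas Cd209a kept its call in 15 of 22 (highest adjusted p = 0.117) and Zbtb46 in 6 of 22 (highest 0.215), and without WT 2 and TG 5 only Fscn1 was called. The part of these cells in the fall of Cd9 and Itgax was not tested.

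The promoters of Mrc1, which rose, and of Trem2 and Itgax, which fell, are shown as examples that hold a motif searched for here. The promoters of Cd163, which rose, of Cd9, which fell, and of Lgals3 held none of the motifs. Each stretch is the 100 bases before the start site in RefSeq (GRCm38.p6), 5′ to 3′ on the plus strand, with capitals on the core of the PU.1 motif (GAGGAA, or TTCCTC on the other strand) and on the AP-1 motif (TGANTCA, which reads alike on both strands); no motif overlaps another. They lie at chr2:14229314-14229413, chr17:48346301-48346400 and chr7:128129450-128129549.
Mrc1: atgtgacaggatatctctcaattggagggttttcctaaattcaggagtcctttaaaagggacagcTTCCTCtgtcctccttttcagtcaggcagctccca
Trem2: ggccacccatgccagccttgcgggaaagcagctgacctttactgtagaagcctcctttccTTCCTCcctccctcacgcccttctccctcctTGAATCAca
Itgax: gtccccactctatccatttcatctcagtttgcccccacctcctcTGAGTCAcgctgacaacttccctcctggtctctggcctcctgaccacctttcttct

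RefSeq promoters of 300 bases, 250 before to 50 after the start, were at hand for 24 of the 38 genes. These genes had 27 such promoters. The PU.1 core was in 10 of the 27, against 28.3% of 32851 promoters of that length. The AP-1 motif was in 6 of the 27, against 7.81%. By gene, 9 of the 24 held the PU.1 core and 6 held the AP-1 motif. The AP-1 motif was present for Trem2, Itgax and Gpnmb, 3 of the 6 lipid-associated genes, and for 1 each of the identity (Cd68), resident-type (Folr2) and inflammatory (Cd80) genes with a promoter. The NF-kappaB motif was in 3 of the 27 promoters, those of Tlr2 and Fcgr3, against 4.51% of all promoters. These are matches of letters in short windows, and no binding was measured.

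Set against Mrc1 in the same library, the 4 scarce lipid-associated genes and both cytokines were lower in every TG mouse. The log2(FPKM + 1) of Trem2 minus that of Mrc1 was -1.96, -1.59, -1.26 and -1.75 in WT and -3.27, -3.04, -3.12 and -3.57 in TG. The TG mice lay 1.61 lower on average without overlap. With the pseudocount a scaling of the library does not cancel in such a difference for genes this low: division by all recovered reads moved the log2 change of Mrc1 from 1.07 to 1.44 and that of Trem2 from -0.55 to -0.40. TG minus WT was -1.53 for Gpnmb, -1.45 for Itgax, -1.53 for Spp1, -3.47 for Il1b and -2.13 for Tnf. These differences are a description. The rise of Mrc1 itself enters each value, and Mrc1, Trem2, Gpnmb, Il1b and Tnf each separated the genotypes already, so the smallest exact permutation p that 4 against 4 mice allow (0.0286, found for all 6) was fixed for 4 of them and supports nothing. With Adgre1 in place of Mrc1 the differences were -1.07 for Trem2, -0.99 for Gpnmb, -0.91 for Itgax, -0.99 for Spp1, -2.93 for Il1b and -1.59 for Tnf. For Spp1, which alone did not pass, the difference holds only relative to a gene that rose.

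**Figure D3:**
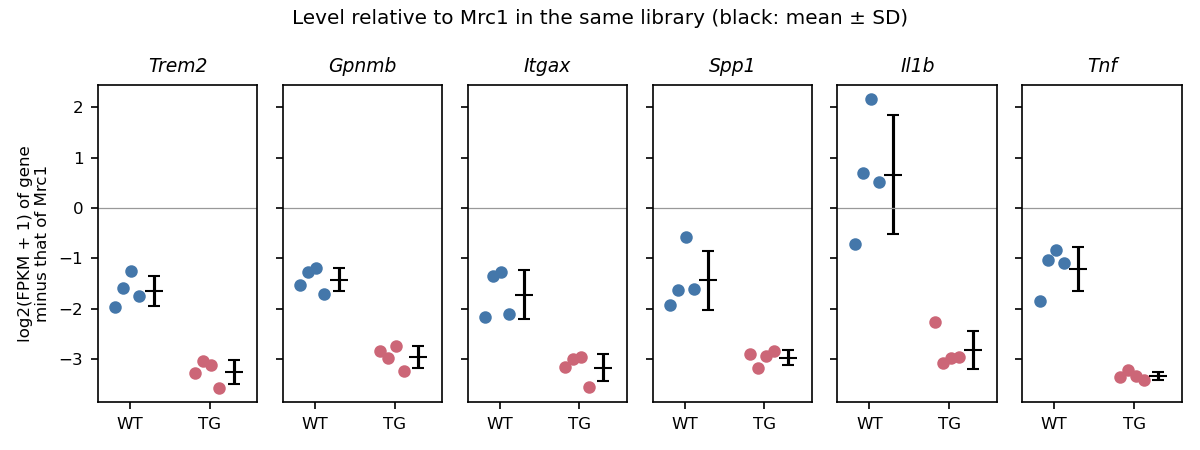
The vertical axis is the log2(FPKM + 1) of the named gene minus that of Mrc1 in the same library, 1 point per mouse (WT blue, TG red), with the mean ± SD of 4 mice in black and a grey line at 0. In each of the 6 panels all TG points lie under all WT points, and the gap is widest for Il1b (-3.47).

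Another 20 genes are tied to lipid handling in macrophages but in part shared with adipocytes. Of the 18 tested, 9 rose and 5 fell, against 22.3% of all tested genes called higher and 21.8% lower. The counts were 7 and 5 without WT 2 and TG 5, and 12 and 3 with division by all recovered reads. The median log2 change of the 20 was 0.41, unlike the fall of the lipid-associated genes above. The lowest p belonged to Syngr1, a vesicle membrane protein, which fell from 9.63 ± 1.40 to 1.20 ± 0.204 FPKM, and Plin2, the coat protein of lipid droplets, fell from 551 ± 175 to 187 ± 16.7 FPKM. The cholesterol exporter Abca1 rose from 6.49 ± 0.409 to 20.2 ± 3.47 FPKM, and the lysosomal protease Ctsl from 24.0 ± 1.38 to 48.3 ± 6.88 FPKM (SD, n = 4 each).

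None of the clearance and scavenger receptors passed. Mertk, which recognises dead cells through the bridging protein Gas6, was at 2.51, 2.14, 2.64 and 3.49 FPKM in WT and 2.07, 1.86, 1.53 and 2.28 FPKM in TG (log2 change -0.32, SE 0.14, adjusted p = 0.0809). Its relative Axl was at 7.45 ± 1.67 and 6.78 ± 2.01 FPKM, and the scavenger receptor Msr1 at 1.28 ± 0.307 and 1.01 ± 0.497 FPKM (SD, n = 4 each). Marco, a scavenger receptor of bacteria, had 0 to 3 reads per library. Limma called 0 of the 3 tested, and 1 of them, Mertk, was under 0.05 before adjustment (0.0400). The ligand behaved otherwise: Gas6 stood at 25.6, 23.2, 16.8 and 22.2 FPKM in WT and at 301, 250.4, 242.5 and 294 FPKM in TG (log2 change 3.58, SE 0.14, adjusted p = 5.97e-07). Pros1, the other bridging protein, was at 9.64 ± 2.07 and 12.9 ± 1.61 FPKM and did not pass (adjusted p = 0.0593).

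The receptors for antibody complexes divided. Fcgr2b, the inhibitory Fc receptor, stood at 3.37, 1.62, 2.44 and 2.29 FPKM in WT and at 6.05, 3.66, 3.28 and 4.86 FPKM in TG and rose (log2 change 0.67, adjusted p = 0.0204 with limma). Fcgr3, an activating receptor, stood at 12.1, 10.5, 15.1 and 11.1 FPKM in WT and at 21.5, 13.2, 16.0 and 21.2 FPKM in TG and rose as well (log2 change 0.51, adjusted p = 0.0357). In both the groups overlapped by a single pair of mice, WT 1 with TG 3 for Fcgr2b and WT 3 with TG 2 for Fcgr3. Fcgr1, the high-affinity receptor, was at 2.13 ± 0.482 and 1.86 ± 0.409 FPKM, and Fcer1g, the signalling chain that both activating receptors need, at 16.6 ± 3.71 and 17.8 ± 3.39 FPKM (SD, n = 4 each; neither passed).

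Tyrobp (DAP12), the adaptor of Trem2, stood at 27.9, 37.1, 48.4 and 42.8 FPKM in WT and at 30.1, 27.6, 26.8 and 27.9 FPKM in TG. The TG mice were close together, WT 1 lay among them, and the fall was at the threshold (log2 change -0.43, adjusted p = 0.0478 with limma). It was lost without any 1 of WT 2 (0.0780), WT 3 (0.109), WT 5 (0.0961), TG 1 (0.0686), TG 2 (0.101), TG 3 (0.104) or TG 5 (0.0947), and in 17 of 23 alternatives in all (range 0.00453 to 0.936). Of the 15 tested signalling proteins downstream of these adaptors, 14 did not pass. With division by all recovered reads, 3 of the 15 were called, each higher.

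The calls of both Fc receptors were weak, and without WT 2 and TG 5 none of the 5 genes of the group was called. Fcgr2b lost its call without WT 2 (adjusted p = 0.0530), TG 1 (0.0555) or TG 5 (0.0539; range 0.00114 to 0.117). Fcgr3 lost it without WT 1 (0.0619), WT 2 (0.0890), WT 5 (0.0719), TG 1 (0.0961), TG 3 (0.0504) or TG 5 (0.0985; range 0.00180 to 0.200). Fcer1g passed as higher when divided by all recovered reads (0.0321) and with voom (0.0471; range 0.0321 to 0.985). Fcgr2b and Fcgr3 are similar in sequence, so reads could have been split between them. Fcgr2b is also carried by B cells. The 8 B cell markers summed to 1.86 to 2.76 in WT and 2.27 to 16.4 FPKM in TG, with Cd79b and Fcrla called higher among the 3 tested. TG 5, the TG mouse with the least Cd79b (0.823 FPKM, against 4.32 to 6.09 FPKM in the other 3), had the second highest Fcgr2b; the part of B cells was not tested.

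Within the inflammatory and pattern recognition group, the sensors of bacterial lipopolysaccharide rose while Tlr2 and both cytokines fell. Tlr4 (chromosome 4, 66827584 to 66930284, plus strand), the lipopolysaccharide receptor, stood at 2.55, 2.81, 3.19 and 2.17 FPKM in WT and at 5.18, 5.29, 6.33 and 5.61 FPKM in TG. The groups were far apart, with a mean 2.09 times as high in TG (log2 change 0.85, SE 0.12, adjusted p = 0.000353 with limma), and Tlr4 had the lowest adjusted p of the 38. Cd14, its co-receptor, stood at 15.0, 16.0, 16.8 and 23.1 FPKM in WT and at 29.4, 24.9, 25.5 and 38.5 FPKM in TG, also without overlap (log2 change 0.71, SE 0.17, adjusted p = 0.00840). Ly96, the third partner of that complex, was at 3.76 ± 2.33 and 2.31 ± 0.721 FPKM (SD, n = 4 each) and did not pass. Tlr4 was called in each of its 23 alternatives, and Cd14 lost its call without WT 2 and TG 5 (adjusted p = 0.0549; range 0.000266 to 0.0549). Of the 5 genes of the group still tested without WT 2 and TG 5, 1 rose and 2 fell. Adipocytes express both Tlr4 and Cd14, and adipocyte markers rose as given above. The part of adipocytes in the rise of Tlr4 and Cd14 was not tested.

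Il1b (chromosome 2, 129364570 to 129371139, minus strand), the precursor of interleukin-1 beta, stood at 2.85, 6.67, 20.6 and 9.80 FPKM in WT and at 1.85, 0.223, 0.321 and 0.892 FPKM in TG. It varied widely within WT, from 64 reads in WT 1 to 523 in WT 3, yet the highest TG mouse was under the lowest WT mouse, and the mean was 12.2 times as high in WT (log2 change -2.41, SE 0.47, adjusted p = 0.00283 with limma). The TG values of Il1b rest on 84, 9, 14 and 39 reads. Tnf stood at 0.777, 1.32, 1.70 and 2.56 FPKM in WT and at 0.333, 0.115, 0.0267 and 0.373 FPKM in TG. The groups did not overlap, but the TG values rest on 13, 4, 1 and 14 reads (mean 7.49 times as high in WT; log2 change -1.06, SE 0.20, adjusted p = 0.00251). As for Trem2, Tnf reached 0.5 FPKM in the WT libraries only, and with no filter its adjusted p was 0.0117. Il1b was called in each of the 22 alternatives that kept it among the tested genes, and Tnf in each of its 17, none of which left out a WT library.

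Tlr2, the receptor for bacterial lipoproteins, split the WT mice, with 1.72, 1.43, 3.89 and 3.65 FPKM in WT and 1.57, 1.02, 1.09 and 1.11 FPKM in TG. WT 2 lay below TG 1, and the fall (log2 change -0.68, adjusted p = 0.0390 with limma) was lost without WT 3 (0.0922), WT 5 (0.0902), TG 2 (0.0912), TG 3 (0.0835) or TG 5 (0.0799). It was lost in 10 of 22 alternatives in all (range 0.0125 to 0.135). The co-stimulatory ligand Cd86 was at 2.90 ± 0.716 and 3.14 ± 0.895 FPKM (SD, n = 4 each; adjusted p = 0.751). Cd80, its relative, lay between 0.181 and 0.609 FPKM in all libraries. Nos2, the inducible nitric oxide synthase, was at 0.770, 1.42, 0.222 and 1.09 FPKM in WT and at 0.485, 0.268, 0.169 and 0.405 FPKM in TG; it and Cd80 were too low to be tested. Arg1, the arginase of alternatively activated macrophages, had 54 reads in TG 1 and 0 to 13 elsewhere, and Il10, an anti-inflammatory cytokine, had 21 reads in WT 5 and 0 to 17 elsewhere; neither was tested.

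Neutrophils also make interleukin-1 beta, and 4 of their 5 tested markers fell. S100a8, an abundant neutrophil protein, stood at 4.65, 54.8, 125 and 40.7 FPKM in WT and at 10.5, 1.29, 0.757 and 5.09 FPKM in TG, highest in WT 3, where Il1b was highest, and lowest within WT in WT 1, where Il1b was lowest. It fell (log2 change -3.13, adjusted p = 0.0194 with limma), a call lost without TG 2 (0.0538) or TG 3 (0.0551) and in 5 of 23 alternatives in all (highest 0.0654). The 12 neutrophil markers summed to 14.9 to 402 in WT and 8.19 to 31.9 FPKM in TG; of the 5 tested, S100a8, S100a9, Retnlg and Csf3r fell and Mmp9 rose (the last 2 named after their values were seen). Of these, 1 fell and 1 rose without WT 2 and TG 5, and 2 fell without TG 2 or without TG 3. S100a9 lost its call in 6 of 23 alternatives (without WT 3, TG 2 or TG 3 among them; highest 0.0682) and Retnlg in 1 of 22 (0.0547). Ly6g, the gene that defines the type in mice, was at 0 in WT 1, in WT 2 and in all TG libraries and at 0.240 and 0.371 FPKM in WT 3 and WT 5. Within TG, TG 1 had the most S100a8 and the most Il1b. The part of neutrophils in the fall of Il1b, Tnf and Tlr2 was not tested.

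**Figure D4:**
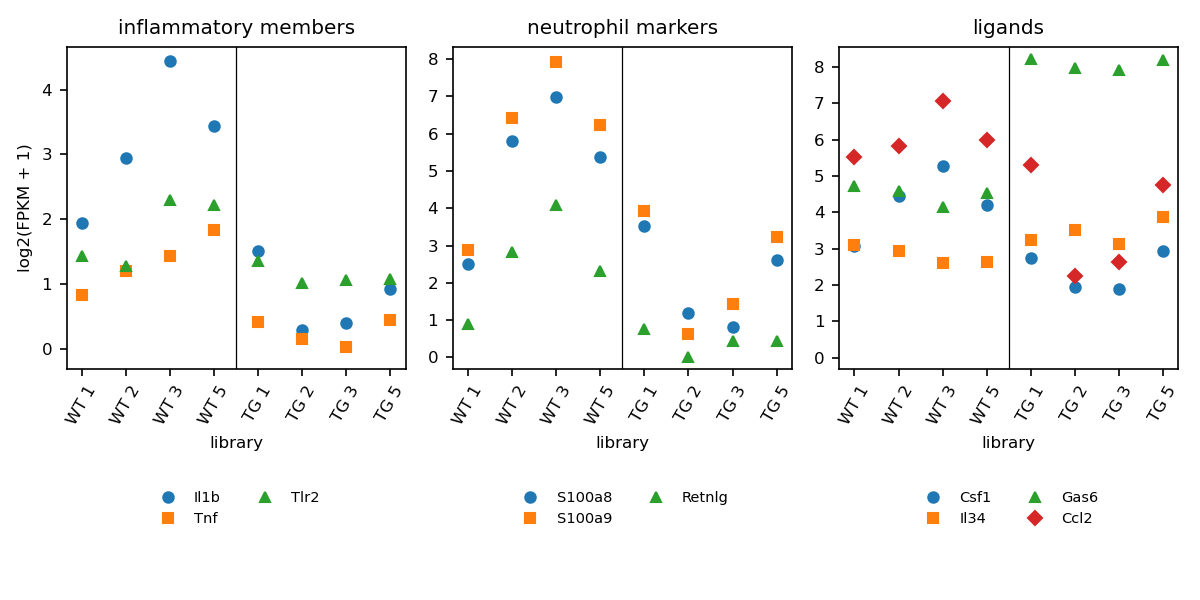
Each panel gives log2(FPKM + 1) on the vertical axis for each of the 8 libraries on the horizontal axis, WT left and TG right of the line. Left, Il1b, Tnf and Tlr2; middle, the neutrophil markers S100a8, S100a9 and Retnlg; right, the ligands Csf1, Il34, Gas6 and Ccl2. WT 3 is highest for Il1b, Tlr2, Csf1, Ccl2 and the 3 neutrophil markers, and Gas6 and Il34 are higher in each TG library than in any WT library.

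Genes of toll-like receptor signalling and its targets moved both ways, with 3 that rose and 3 that fell among the 15 tested (2 and 3 without WT 2 and TG 5). Casp1, the protease that activates interleukin-1 beta, rose from 3.15 ± 0.728 to 16.1 ± 0.931 FPKM (log2 change 2.06, adjusted p = 4.77e-06 with limma), the opposite of its substrate. Tlr7, a sensor of RNA, rose from 0.869 ± 0.123 to 1.70 ± 0.237 FPKM. Il1rn, the natural antagonist of interleukin-1, fell with Il1b, from 3.19 ± 1.56 to 0.715 ± 0.567 FPKM, and Irak3, a brake on receptor signalling, from 8.44 ± 1.31 to 5.12 ± 0.899 FPKM (SD, n = 4 each). With division by all recovered reads 6 of the 15 rose and 1 fell, and Irak3 lost its call (adjusted p = 0.222).

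The ligands that feed macrophages diverged. Csf1 stood at 7.44, 20.7, 37.7 and 17.3 FPKM in WT and at 5.76, 2.83, 2.71 and 6.68 FPKM in TG and fell (log2 change -1.87, SE 0.43, adjusted p = 0.00625 with limma). Il34, the other ligand of Csf1r, stood at 7.67, 6.64, 5.07 and 5.26 FPKM in WT and at 8.44, 10.4, 7.82 and 13.6 FPKM in TG and rose (log2 change 0.62, adjusted p = 0.0203). Ccl2, which draws monocytes into tissue, stood at 44.7, 56.3, 132 and 63.1 FPKM in WT and at 38.9, 3.78, 5.19 and 26.2 FPKM in TG and fell (log2 change -2.36, adjusted p = 0.0170). The groups did not overlap for any of the 3. Il34 lost its call without WT 3 (0.0514), TG 2 (0.0532) or TG 5 (0.0501; highest 0.0695). Apoe, a lipid carrier that binds Trem2, rose from 1303 ± 322 to 2347 ± 125 FPKM, and Cd47, which restrains engulfment through Sirpa, from 9.66 ± 1.69 to 16.7 ± 0.744 FPKM. Anxa1, Cd200, Cx3cl1 and Il4 did not pass, and Csf2, Il13 and Ifng were too low to be tested.

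Of 19 further macrophage genes tested outside the 38, 6 rose (against 22.3% of all tested genes), 0 fell and 13 did not pass. The rises numbered 4 without WT 2 and TG 5, without TG 1, without TG 5, with no filter and with a replicate block, and 11 with division by all recovered reads. The median log2 change over the 20 was 0.34. Sirpa, the receptor of Cd47, rose from 5.95 ± 0.366 to 12.8 ± 1.67 FPKM, and Fcrls, an Fc receptor-like protein, from 2.50 ± 1.20 to 6.59 ± 1.44 FPKM (SD, n = 4 each). Ms4a6c rose as well, by a log2 change of 0.79. Among macrophage transcription factors 5 rose and 4 fell of the 18 tested. Cebpa, which adipocytes share, rose from 181 ± 21.9 to 497 ± 58.5 FPKM, Runx1 from 0.952 ± 0.464 to 4.25 ± 0.607 FPKM and the oxysterol receptor Nr1h3 from 45.5 ± 3.86 to 72.6 ± 8.74 FPKM, while Klf4 fell from 12.1 ± 1.21 to 6.36 ± 1.35 FPKM.

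The 38 genes also differed between mice of 1 genotype. WT 3 was the highest WT library for 15 of them, 5 of the 8 inflammatory genes included, and the lowest for 5 of the 7 resident-type genes. By mean log2(FPKM + 1), the inflammatory group was at 1.66, 1.82, 2.20 and 2.13 in WT and the resident-type group at 2.01, 1.43, 1.05 and 1.89, so WT 3 paired the highest of the first with the lowest of the second. In TG the same means were 1.75, 1.42, 1.43 and 1.76 for the inflammatory and 2.41, 2.08, 2.10 and 2.31 for the resident-type group. TG 1 was the highest TG library for 24 of the 38 genes, and the lowest was TG 2 for 17 and TG 3 for 16. The resident-type means of the TG mice were all above those of the WT mice, and the lipid-associated means, at 2.03, 2.02, 2.50 and 2.45 in WT, were lower in each TG mouse, from just under WT 2 in TG 1 down to 1.56 in TG 2. The summed FPKM of the lipid-associated genes, most of it Lgals3, overlapped, with 49.8 to 93.0 in WT and 54.7 to 78.8 in TG.

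**Figure D5:**
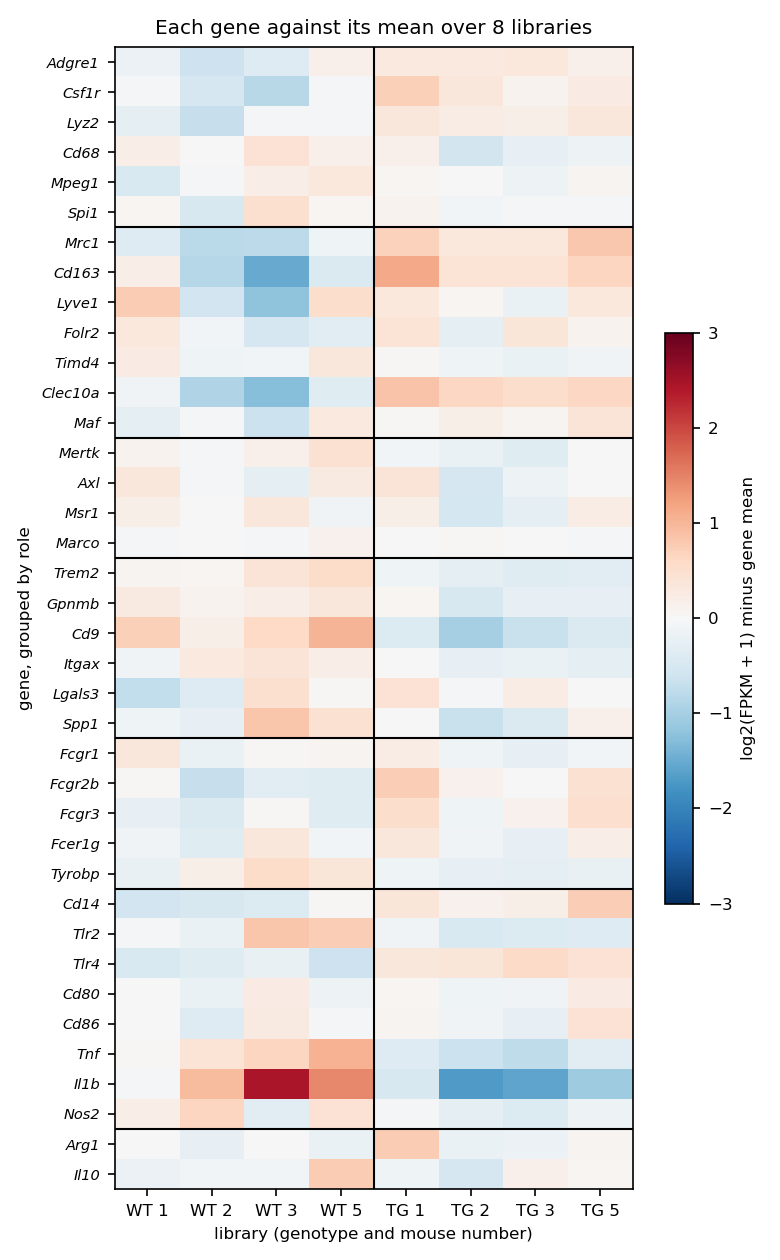
Rows are the 38 genes grouped by role and columns are the 8 libraries; colour gives log2(FPKM + 1) minus the mean of that gene over the 8 libraries (red above, blue below). Il1b in WT 3 is the highest cell, and the resident-type genes Cd163 and Clec10a are lowest in WT 3 and highest in TG 1.

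Calls depended on how the libraries were scaled. Dividing by all recovered reads moved the median change of all genes, in log2, from 0.01 to 0.32, rescaling without the most abundant genes to 0.28 and voom to 0.45. Under the first of these, 13 of the macrophage genes were called higher and 4 lower, namely Trem2, Cd9, Tnf and Il1b. Over all genes the same division called 5569 higher and 1415 lower, so the tilt to rises was not particular to the macrophage genes. Of the 18 genes called, Mrc1, Clec10a, Tlr4 and Cd9 were called in each of 23 alternatives and Il1b in each of 22. Trem2 and Tnf were called in each of 17, but those hold none without a WT library, the group through which both passed the filter. The other 11 lost the call in at least 1 alternative, and none of the 18 changed sign in any.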

How the data were processed

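RNA of brown fat from 4 WT and 4 TG mice was sequenced, 1 library per mouse, and groups follow the labels. The submitters' processing notes name featureCounts 1.5.0-p3, HISAT2 2.0.5, bcl2fastq and the build mm10, per the labels. For the annotation release, the strand setting and the divisor behind the FPKM, nothing is given in the sources used here. The authors deposited FPKM for 54532 genes. Multiplied by gene length, the values of a library moved in equal steps of 1 read, so reads could be recovered and were used for depth and read numbers. Their total over the implied divisor was 1.02 to 1.22 in WT libraries and 0.822 to 0.883 in TG libraries: the FPKM carry a further scaling, which was kept for the main results.

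Differences were tested two-sided with R 4.3.3 and limma 3.58.1 (eBayes, trend) on log2(FPKM + 1), which understates the change of low genes, where 4 or more libraries reached 0.5 FPKM, adjusted by Benjamini-Hochberg over all 12508 genes, with a threshold of 0.05. Differences of log2 levels to Mrc1 within a library were compared by exact permutation of the mice (scipy 1.17.1). On simulated data of 12347 genes the limma procedure recovered 41.9% of genes lowered to 0.5, 60% of those raised 2-fold and 100% of those changed 4-fold either way, with 14 false calls. The simulation gave every gene a dispersion of 0.06, started both groups from the WT means and changed 43 to 50 tested genes per fold. It held no difference in mitochondrial share, so these figures do not measure recovery or false calls in the real data. Alternatives were pseudocounts of 0.1 and 0.01, no filter or one of 5 FPKM, 5 other scalings (upper quartile, trimmed mean, quantile, rescaling without the 20 most abundant, haemoglobin and mitochondrial genes, and by all recovered reads), voom on the recovered reads, no trend, protein-coding genes only, a replicate block, and leaving out each library, or WT 2 and TG 5. Division by reads outside the mitochondrial chromosome was chosen after seeing the data. The range of an adjusted p over alternatives leaves out those in which the gene was not tested.

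The members, the lists and the doubt about WT 2 and TG 5 were chosen with earlier results of these data known. Any of the 38 genes could be named, as could up to 4 called genes with the lowest p from each further list, any listed ligand, up to 3 markers of each other cell type by mean FPKM, and defining markers; some markers in small counts were chosen for naming with their values in view. Promoters are from RefSeq, matched by symbol, and searched on both strands. Figures were drawn with matplotlib 3.10.9. The labels do not say whether mice were littermates. The limma p-values weigh the difference between genotypes against the spread between these mice, an estimate partly shared over genes. A few counted genes are left unnamed and are not reported here.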

Additional observations from a re-analysis of the deposited data

Results flagged for a closer look

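Within the groups of 4 libraries, 76 in all for the 38 genes, 2 held a library far from the other 3 by Dixon's criterion at its usual level; chance flags about 1 in 20. Spi1 in TG 1 was at 5.03 FPKM (323 reads), with the other TG libraries at 4.29 to 4.40 FPKM. Il10 in WT 5 was at 1.40 FPKM (21 reads), with the other WT libraries at 0.259 to 0.345 FPKM.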

How the results depend on the processing

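The 6 differences to Mrc1 stayed negative but moved in size: Trem2 from -1.61 to -1.07 with Adgre1 in place of Mrc1 and -2.56 with a pseudocount of 0.1, and Tnf from -2.13 to -1.59 and -3.72; their exact p was at its floor throughout and says nothing of stability. The count of the 38 that rose was 10 and became 6 with no filter and 3 without WT 2 and TG 5; leaving out 1 library gave 6 (without TG 1) to 10. The count that fell was 8 and became 4 with no filter, with rescaling without abundant genes, with division by all recovered reads and with voom, 2 with the 5 FPKM filter, 3 without WT 2 and TG 5, and 3 (without WT 3 or WT 5) to 7 with 1 library left out (4 without WT 2, 5 without TG 2, TG 3 or TG 5). The mouse numbers are not said to mark a pairing, and deviations of same-numbered libraries correlated at -0.24 to 0.04; with a replicate block 10 of the 38 rose and 5 fell, and 4847 rather than 5513 of all genes were called.

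Of all genes, 2788 rose and 2725 fell. Rises numbered 1445 with the 5 FPKM filter, 5318 with rescaling without abundant genes, 5569 with division by all recovered reads, 5629 with voom and 1827 without WT 2 and TG 5. Falls numbered 1703, 1527, 1415 and 1447 in the first 4 of these. Cause was not tested.

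Signs changed in 8 genes that did not pass. Mpeg1 (-0.0011) gave 0.0032 and 0.0037 with pseudocounts of 0.1 and 0.01, 0.0472 with upper quartile, 0.0023 with trimmed mean, 0.0080 with quantile and 0.0213 with non-mitochondrial scaling. With rescaling, division by all reads and voom, Mpeg1 gave 0.33, 0.37 and 0.43, Spi1 0.26, 0.30 and 0.36, Axl 0.20, 0.24 and 0.28, and Fcgr1 0.13, 0.16 and 0.23; Msr1 gave 0.0010 and 0.0224 with the first pair. Without WT 2 and TG 5, Fcer1g gave -0.0566 and Cd86 -0.17. With 1 library left out, Mpeg1 ran from -0.15 to 0.10, Spi1 from -0.22 to 0.10, Lyve1 from -0.11 to 0.54, Axl from -0.29 to 0.0132, Fcer1g down to -0.0068 and Cd86 from -0.0536 to 0.18.

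Depth limits Il1b, Tnf, Trem2, Itgax and Spp1 in TG, where single libraries held 1 to 84 reads.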

Other observations

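Markers of other blood cells were measured beside the 38 genes. Of 6 tested T cell markers, Thy1, Cd3d and Lck rose and 3 did not pass (Lck named after its value was seen). The rises numbered 5 without WT 2 and TG 5 or without TG 5 alone. They numbered 1 with any other single library left out, with no filter and with a replicate block. Without WT 5, TG 1, TG 2 or TG 3 only 2 of these markers were still tested. Thy1, a surface protein of T cells and fibroblasts, went from 3.60 ± 1.61 to 10.5 ± 1.09 FPKM (SD, n = 4 each). Cd3d, a chain of the T cell receptor, was at 0.140, 0.123, 0.414 and 1.01 FPKM in WT and at 1.43, 1.74, 2.53 and 0.481 FPKM in TG, where TG 5 fell within the WT values, as it did for the B cell marker Cd79a and the killer cell marker Nkg7. Cd3d lost its call without WT 1 (0.0823), WT 2 (0.0882) or WT 3 (0.0631), with 0.105 as the highest adjusted p over its alternatives.

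Of 7 monocyte markers tested, Plac8 and Ccr2 rose and 5 did not pass (1 rose without WT 2 and TG 5). Plac8, a small protein of myeloid cells, went from 3.20 ± 1.11 to 9.57 ± 1.61 FPKM, and Ccr2, the receptor of Ccl2, from 1.48 ± 0.272 to 2.18 ± 0.136 FPKM, although Ccl2 itself fell. Ccr2 lost its call without TG 1 (0.0650) or TG 5 (0.0586), with 0.104 as the highest adjusted p. Of 2 killer cell markers Nkg7 rose, a call lost without WT 1, WT 2, WT 3, TG 1, TG 2 or TG 3 (adjusted p = 0.0644 to 0.0955, highest 0.104). Of 6 mast cell markers Hdc fell (named after its value was seen). With WT 1, WT 2, WT 3 or WT 5 left out, 0 of the 5 mast cell markers still tested were called. All 5 red cell markers tested fell, as did 9 of 10 brown adipocyte markers, Ucp1 included.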
